A study of Homo sapiens with 4 samples.

Results

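The 41 transcripts described here are the kinesin genes expressed in D458, among them KIF1A, and the account sets the kinesins of mitosis beside those of axonal transport. They are the rows of the deposited count table whose symbol starts with KIF or KIFC and a number and that reached 10 counts in at least 2 of the 4 libraries. Of 16839 gene rows, 42 match by symbol and 41 reach the count minimum; all 41 also entered the tests. KIF5C, the one left out, had 6 and 2 counts in the shNull clones against 5 and 2 in the shSETD8 clones, and the member nearest to the minimum, KIF26B, had 22 and 18 counts in the shNull clones against 41 and 6 in the shSETD8 clones. Of the 41, 39 encode proteins of the kinesin family, called motors here although KIF26A is known to lack motor activity, and 2 do not: KIF1BP encodes a protein that binds kinesins, and KIF9-AS1 is an RNA antisense to KIF9.

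D458 is an established cell line from a group 3 medulloblastoma, a tumour of the cerebellum, and carries an amplified MYC gene. The shNull cells carried a non-targeting lentiviral hairpin and the shSETD8 cells a hairpin against SETD8, which encodes the methyltransferase that puts a single methyl group on lysine 20 of histone H4. All cells were transduced with polybrene and held in puromycin at 1 µg/mL for 14 days. Each group had 2 libraries, from separate clones of the 1 line, and the labels list several gene-specific hairpins without tying them to clones. Spread between libraries is therefore spread between clones, and p-values measure no more than that. An exact permutation test of 2 against 2 libraries cannot give a p below 0.333, so p-values here come from fits across all genes.

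Kinesins are motor proteins that use ATP to move along microtubules or to take them apart. In neurons, motors such as KIF1A and the KIF5 proteins carry vesicles and organelles from the cell body out along the axon. In dividing cells another set builds the spindle, moves chromosomes and completes cytokinesis, and its genes are transcribed mainly late in the cell cycle. The motors were sorted by textbook role into 13 mitotic kinesins, 9 of axonal transport, 7 of other vesicle transport, 6 of cilia and 4 others.

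Total counts ran from 40908334 to 52627366 per library. SETD8 stood at 38.9 and 41.6 CPM (read counts normalised to library size) in the shNull clones and at 14.0 and 26.4 CPM in shSETD8 replicates 1 and 2, or 34.7% and 65.5% of the shNull mean; the labels state a knockdown of 80%. Its log2 fold change was -1.0 ± 0.30 (SE; edgeR adjusted p = 0.421, DESeq2 adjusted p = 0.0459). The shSETD8 libraries differed more from each other than the shNull libraries did: the SD of the log2 difference between libraries was 0.51 against 0.21 for the 11604 genes that averaged 100 counts or more. Group 3 medulloblastoma markers summed to between 5807 and 6112 CPM in all libraries. MYC, OTX2 and IMPG2 made up most of that sum, which hides differences in the rest. NRL was at 45.7, 36.9, 22.3 and 170 CPM (shNull replicates 1 and 2, then shSETD8 replicates 1 and 2). The groups overlapped in 4 of the 6 markers, while GABRA5 was higher and OTX2 lower in both shSETD8 libraries. Markers of endothelium (1 of 3 with a row), astrocytes (2 of 2) and oligodendrocytes (1 of 3) each summed to under 0.5 CPM, and those of immune cells (2 of 3) to 1.90 to 2.29 CPM. The 4 fibroblast markers summed to 64.9 and 53.0 CPM in shNull and to 32.0 and 39.5 CPM in shSETD8, with 2 of them lower in both shSETD8 libraries and 1 higher; DESeq2 called 1 of them, as lower. The 4 neuron markers summed to 149 and 130 CPM in shNull and to 125 and 140 CPM in shSETD8. SYT1 made up most of each of these sums. STMN2 varied between clones of the same group, at 8.2, 3.0, 9.9 and 1.1 CPM (shNull replicates 1 and 2, then shSETD8 replicates 1 and 2). RBFOX3 and SNAP25 reached at most 0.612 and 0.294 CPM. Whether these differences have any part in the kinesin values was not tested.

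The promoters of 4 members are shown, 2 that DESeq2 called higher in shSETD8 (KIF1A and KIF26A) and the 2 mitotic kinesins with the lowest p (KIFC1 and KIF14). Each window runs from 250 bases before to 50 after a transcript start in RefSeq on GRCh38.p14, while the counts were made on hg19. It is written 5′ to 3′ along the gene. Capitals in the first 2 mark the GC box GGGCGG, bound by SP1, and in KIF1A also TGACGTCA, the cyclic AMP response element. This last motif was searched after the window had been read. Capitals in the other two mark CCAAT and the cell cycle gene homology region (CHR), written TTTGAA or TTTAAA. All motifs were searched on both strands.
KIF1A promoter, chr2:240820170-240820469, minus strand: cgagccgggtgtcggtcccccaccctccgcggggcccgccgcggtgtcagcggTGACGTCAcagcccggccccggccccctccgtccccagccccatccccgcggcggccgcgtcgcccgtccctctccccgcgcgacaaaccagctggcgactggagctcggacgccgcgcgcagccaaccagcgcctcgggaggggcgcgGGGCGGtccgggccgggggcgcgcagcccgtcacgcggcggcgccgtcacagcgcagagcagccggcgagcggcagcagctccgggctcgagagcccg
KIF26A promoter, chr14:104138337-104138636, plus strand: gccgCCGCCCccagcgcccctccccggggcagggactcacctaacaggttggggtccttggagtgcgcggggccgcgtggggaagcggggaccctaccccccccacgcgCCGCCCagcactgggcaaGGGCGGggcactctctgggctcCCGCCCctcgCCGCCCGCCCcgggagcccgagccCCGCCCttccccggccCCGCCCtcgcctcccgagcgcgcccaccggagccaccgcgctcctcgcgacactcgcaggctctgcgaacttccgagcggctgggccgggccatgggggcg
KIFC1 promoter, chr6:33391573-33391872, plus strand: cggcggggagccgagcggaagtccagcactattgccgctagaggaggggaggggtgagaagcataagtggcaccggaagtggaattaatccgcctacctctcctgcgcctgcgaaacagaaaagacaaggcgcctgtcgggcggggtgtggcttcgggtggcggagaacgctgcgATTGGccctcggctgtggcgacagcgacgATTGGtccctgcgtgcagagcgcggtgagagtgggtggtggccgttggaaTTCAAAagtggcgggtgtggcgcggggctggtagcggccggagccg
KIF14 promoter, chr1:200620702-200621001, minus strand: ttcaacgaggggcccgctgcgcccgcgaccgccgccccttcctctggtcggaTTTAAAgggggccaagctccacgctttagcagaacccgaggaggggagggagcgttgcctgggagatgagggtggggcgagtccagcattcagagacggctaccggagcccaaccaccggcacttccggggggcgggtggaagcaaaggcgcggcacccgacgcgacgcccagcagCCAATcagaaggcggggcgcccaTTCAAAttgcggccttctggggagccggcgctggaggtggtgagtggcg

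In the KIF1A window the cyclic AMP response element starts 197 bases before the transcript start and a GC box 48 bases before it. RefSeq gives KIF1A 3 start windows, and TGACGTCA is in 1 of them, the one shown. The window at chr2:240821354-240821653 holds 0 matches of either motif. Which start is used in these cells was not tested. In KIFC1 and KIF14 the letters TTCAAA, which read TTTGAA on the other strand, begin at bases 5 and 2 after the start. KIFC1 has CCAAT 75 and 46 bases before its start and KIF14 has it 22 bases before, counted to the first base of the match. KIF14 also has TTTAAA 198 bases before its start. The KIF26A window holds 8 GC boxes and no cyclic AMP response element.

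The promoter table held 33 of the 41 members, and the letters were counted by class, with no test. CHR letters stood in 12 of 13 mitotic kinesins (92.3%; KIF22 had none), in 1 of 7 axonal transport kinesins (14.3%; KIF5B) and in 27.9% of all 27305 genes in the table. Of 15 matches in the mitotic windows, 12 began within 50 bases of the start, in 11 genes. CCAAT stood in 84.6% of mitotic and 42.9% of axonal transport kinesins, against 39.7% of all genes. The GC box stood in 97% of the members and 48.3% of all genes. The 27305 genes behind these shares were not chosen by their counts in these cells, as the members were. The cyclic AMP response element was in 2 of 33 members, KIF1A and KIF15 (6.06%, against 2.25% of all genes). TGANTCA, a loose form of the site bound by AP-1, was in 1 of 33 members (3.03%, against 9.37% of all genes), as TGAATCA in KIF21A. CACGTG, the E-box bound by MYC, was in 0 of 33 members, against 8.77% of all genes. A match is a run of letters and no evidence that a factor binds there.

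KIF1A, the fast motor that carries synaptic vesicle precursors and dense-core vesicles in axons, was higher in both shSETD8 clones. It had 1490 and 1993 counts in the shNull libraries and 28473 and 14860 in shSETD8 replicates 1 and 2, or 33.7 and 47.9 CPM against 543 and 304 CPM. The groups were far apart: the lower shSETD8 library was 7.45-fold above the shNull mean and the higher one 13.3-fold. The clone with less SETD8 mRNA was also the one with more KIF1A, an order that 2 libraries cannot test. By group means KIF1A was 10.4-fold higher (424 ± 169 against 40.8 ± 10.0 CPM, SD, n = 2 each).

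The log2 fold change of KIF1A was 3.38 ± 0.34 (SE). It was called by DESeq2 (adjusted p = 4.03e-28). DESeq2 called 0.928% of genes as higher and 1.02% as lower in shSETD8. edgeR's quasi-likelihood test, the main test, gave an adjusted p of 0.289, equal to the lowest over all genes, and called 0% of genes (0 of 14546, with 1573 at an unadjusted p under 0.05; DESeq2 called 283). With shSETD8 replicate 1 or 2 left out, the edgeR adjusted p of KIF1A was 9.43e-06 or 5.43e-06, and the log2 fold change was 2.90 or 3.73. Those fits, in which the spread of a lone clone is taken from the other group, called 9.55% and 17.2% of genes. With shNull replicate 1 or 2 left out, edgeR did not call KIF1A (adjusted p = 0.999 and 0.845), while DESeq2 called it in all 4 of these fits. In RNA from whole cultures, more cells with the transcript and more transcript per cell cannot be told apart.

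**Figure D1:**
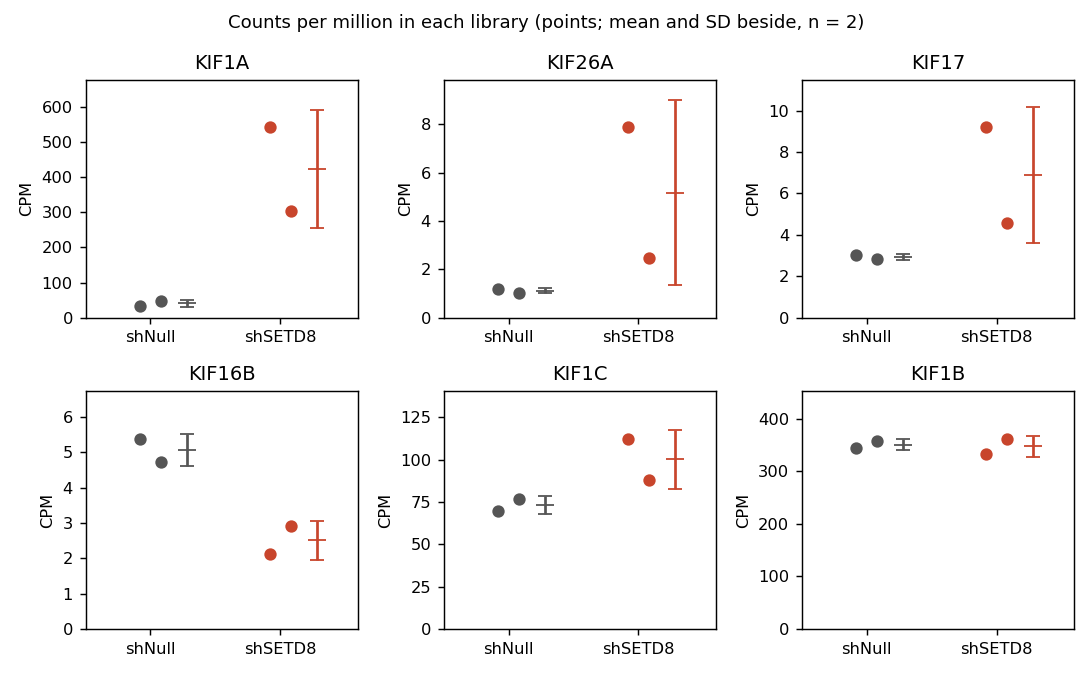
CPM of 6 kinesins in each library (points: replicate 1 left, replicate 2 right; bar beside them: mean and SD, n = 2; each axis starts at 0). Both shSETD8 points of KIF1A, at 543 and 304 CPM, lie above both shNull points, while those of KIF1B overlap.

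Per kilobase of exon, the scale on which genes can be compared with each other, KIF1A moved from the middle of the kinesins to near the top. Its level was 4.23 CPM per kb in shNull and 43.9 in shSETD8 (group means), and its rank among the 39 motors was 24 and 23 in the shNull libraries and 2 and 7 in the shSETD8 libraries. KIFC1 was first in all 4 libraries, with group means of 72.0 and 59.2 CPM per kb. KIF5B followed at 61.6 and 51.4 CPM per kb. KIF1A made up 0.593% and 0.861% of the summed level per kb of all motors in shNull, and 9.48% and 5.31% in shSETD8. Of the summed level per kb of the closely related KIF1A, KIF1B and KIF1C it made up 10.5% and 13.6% in shNull and 62% and 48.7% in shSETD8. The sum over all motors lay between 577 and 594 CPM per kb in all libraries. Exon lengths came from GENCODE on GRCh38, which is not the build of the counts. They join the exons of all basic transcripts of a gene, 16.4 kb for KIF1B and 9.65 kb for KIF1A. In shSETD8 replicate 2, KIF1B was above KIF1A by CPM (362 against 304) and below it per kb (22.1 against 31.5). The shares among KIF1A, KIF1B and KIF1C therefore depend on these lengths.

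**Figure D2:**
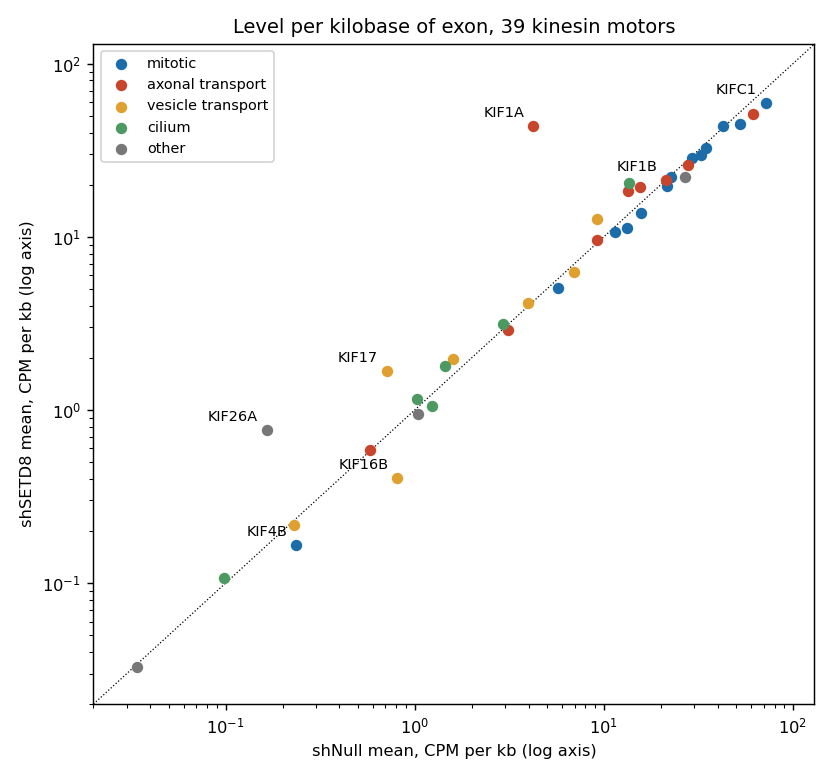
Mean CPM per kb of exon in shNull (x, log axis) and shSETD8 (y, log axis) for the 39 motors, coloured by role, with the line of equal level dotted. KIF1A stands above the line at 4.23 and 43.9 CPM per kb, KIF26A and KIF17 lie above it at low levels and KIF16B below it.

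The other axonal transport kinesins differed far less. KIF1B, the nearest relative of KIF1A and a carrier of mitochondria and synaptic vesicle precursors, stood at 344 and 358 CPM in the shNull clones and at 333 and 362 CPM in the shSETD8 clones, with overlapping groups (-0.01 ± 0.09, log2 fold change ± SE). The KIF5 proteins are the heavy chains of conventional kinesin. KIF5B, the one made in all tissues, was at 378 and 346 CPM in the shNull clones and 310 and 295 CPM in the shSETD8 clones, lower in both clones (-0.26 ± 0.09; edgeR adjusted p = 0.449). KIF5A, a neuronal heavy chain, was at 3.85 and 2.91 CPM in the shNull clones and 2.97 and 3.85 CPM in the shSETD8 clones, a complete overlap.

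KIF3A, KIF3B and KIF3C belong to the kinesin-2 motors, which serve axons and cilia. KIF17 is of the same family and was sorted with the vesicle motors. KIF3C, the neuronal subunit, was at 66.2 and 83.9 CPM in the shNull clones and 120 and 85.9 CPM in the shSETD8 clones (0.45 ± 0.20; edgeR adjusted p = 0.488), so that the groups were apart only by the gap from 83.9 to 85.9 CPM. KIF3B, at 57.1 and 54.9 against 58.2 and 59.4 CPM, was barely higher in shSETD8 (0.07 ± 0.10). KIF3A overlapped, at 22.0 and 18.0 against 16.7 and 20.5 CPM (-0.11 ± 0.18). KIF21A and KIF21B are kinesin-4 motors that also restrain microtubule growth. KIF21A was at 103 and 104 CPM in the shNull clones and at 133 and 123 CPM in the shSETD8 clones, higher in both clones (0.31 ± 0.09; edgeR adjusted p = 0.405). KIF21B was lower in shSETD8 replicate 1 and higher in replicate 2 than its shNull mean, at 309 and 247 against 202 and 317 CPM (-0.10 ± 0.24).

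Of the 9 axonal transport kinesins, 5 had a log2 fold change above 0 and 4 below, with a median of 0.01, the same as the median of all genes tested. The groups did not overlap in 4 that were higher (KIF1A, KIF21A, KIF3C, KIF3B) and 1 that was lower (KIF5B), where 22.9% of all genes were higher and 22.4% lower without overlap. With KIF1A left out, 4 lay above 0 and 4 below. Summed over the class, CPM was 1318 and 1262 in shNull and 1719 and 1571 in shSETD8. Without KIF1A the sums were 1284 and 1214 against 1176 and 1267 CPM, and the groups overlapped.

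Mitotic kinesins lay slightly below the shNull level. Of 13, 12 had a log2 fold change below 0, where 48.8% of all genes did, and the median was -0.15. The groups did not overlap in 6, all lower in shSETD8, against a background of 22.4% of genes lower without overlap. edgeR and DESeq2 called 0 of the 13, and 2 were lower at an unadjusted edgeR p under 0.05 (background 5.16%). By clone, the class median was -0.19 (shSETD8 replicate 1) and -0.14 (replicate 2). Summed CPM was 1343 and 1338 in shNull and 1180 and 1249 in shSETD8. Members of the class share their timing in the cell cycle, so they are not independent of each other.

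KIFC1, the minus-end motor that clusters spindle poles in cells with extra centrosomes, was at 194 and 195 CPM in the shNull clones and at 158 and 162 CPM in the shSETD8 clones (-0.28 ± 0.08; edgeR adjusted p = 0.407). The clones of a group lay close together and the groups apart, and the shSETD8 mean was 82.2% of the shNull mean. KIF14, which acts in cytokinesis, was at 95.6 and 97.8 against 79.5 and 84.1 CPM (-0.24 ± 0.09; edgeR adjusted p = 0.457). KIF20A, another cytokinesis motor that brings the chromosomal passenger complex to the midzone, was at 173 and 164 against 136 and 153 CPM (-0.22 ± 0.10; edgeR adjusted p = 0.490). KIF20B, also of the midzone, was at 100 and 102 against 91.8 and 85.7 CPM (-0.19 ± 0.09; edgeR adjusted p = 0.504). In all of these both clones were lower.

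KIF11, or Eg5, slides antiparallel microtubules apart to make the spindle bipolar. It was at 167 and 152 CPM in the shNull clones and 143 and 144 CPM in the shSETD8 clones (-0.15). KIF15, which can stand in for KIF11, was at 59.3 and 53.7 against 50.6 and 54.3 CPM (-0.11). The shSETD8 clones were both below shNull for KIF11 and overlapped with it for KIF15. KIF18A, which dampens chromosome movements at the metaphase plate, was at 21.0 and 19.9 against 16.6 and 19.3 CPM (-0.19), lower in both clones by little. KIF18B, a motor of astral microtubule ends, was at 87.2 and 99.2 against 81.3 and 88.5 CPM (-0.13). KIF2C, or MCAK, a depolymerase that corrects wrong attachments, was at 94.5 and 93.9 against 89.0 and 94.8 CPM (-0.04). Both of these overlapped.

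KIF23, a centralspindlin subunit, was at 87.3 and 83.3 CPM in the shNull clones and 93.9 and 73.0 CPM in the shSETD8 clones (-0.03), the clones lying on either side. KIF4A, a chromosome-bound motor of the midzone, was at 149 and 152 against 119 and 165 CPM (-0.09), again on either side. KIF22, which pushes chromosome arms, was at 114 and 124 against 120 and 124 CPM and was the single mitotic kinesin with a value above 0 (0.04). KIF4B is a near copy of KIF4A, so its count is uncertain; it was at 0.838 and 1.23 against 0.591 and 0.860 CPM (-0.51 ± 0.40). CENPE, a kinetochore kinesin whose symbol lies outside the rule, was at 132 and 121 CPM in the shNull clones and at 111 and 107 CPM in the shSETD8 clones (-0.21 ± 0.09; edgeR adjusted p = 0.487).

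**Figure D3:**
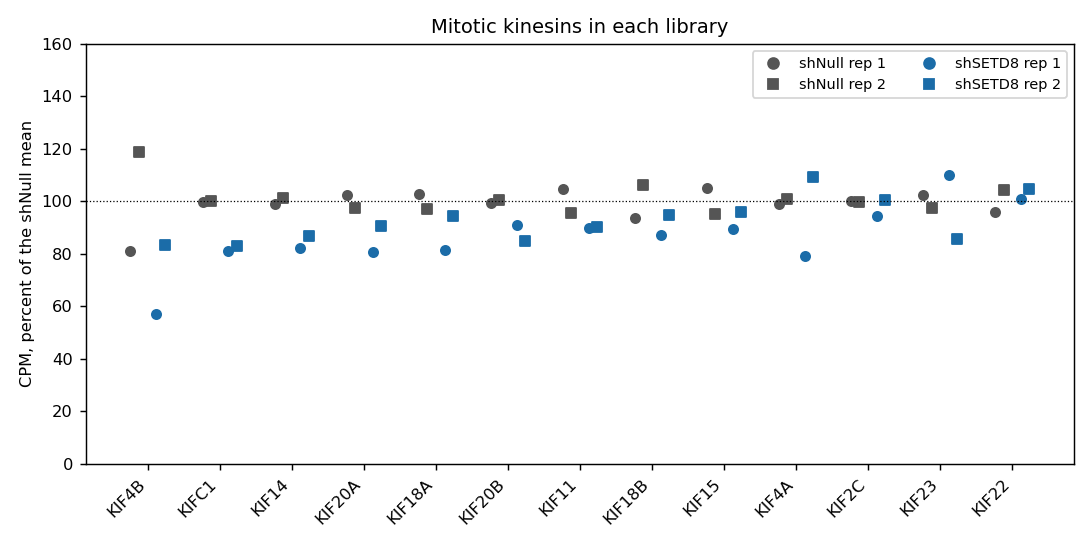
CPM of the 13 mitotic kinesins in each library as a percent of the gene's shNull mean (y axis from 0; grey: shNull, blue: shSETD8; circles: replicate 1, squares: replicate 2). For KIFC1 both shSETD8 clones sit near 82.2% of the shNull mean, apart from both shNull clones, while KIF22, KIF23, KIF2C and KIF4A overlap.

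Set side by side, the axonal transport median exceeded the mitotic median by 0.16 on the log2 scale. The difference was 0.12 in shSETD8 replicate 1, where the medians were -0.07 and -0.19, and 0.34 in replicate 2, where they were 0.20 and -0.14. With KIF1A left out it was 0.15. Mitotic kinesins took 60.1% and 61.4% of the summed motor level per kb in shNull and 52.7% and 55.6% in shSETD8, and axonal transport kinesins 27.3% and 26.6%, then 34.3% and 30.8%. These shares move with KIF1A, which is part of the sum. The contrast is a description of these libraries and was not tested, since the members were sorted into roles with results known.

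**Figure D4:**
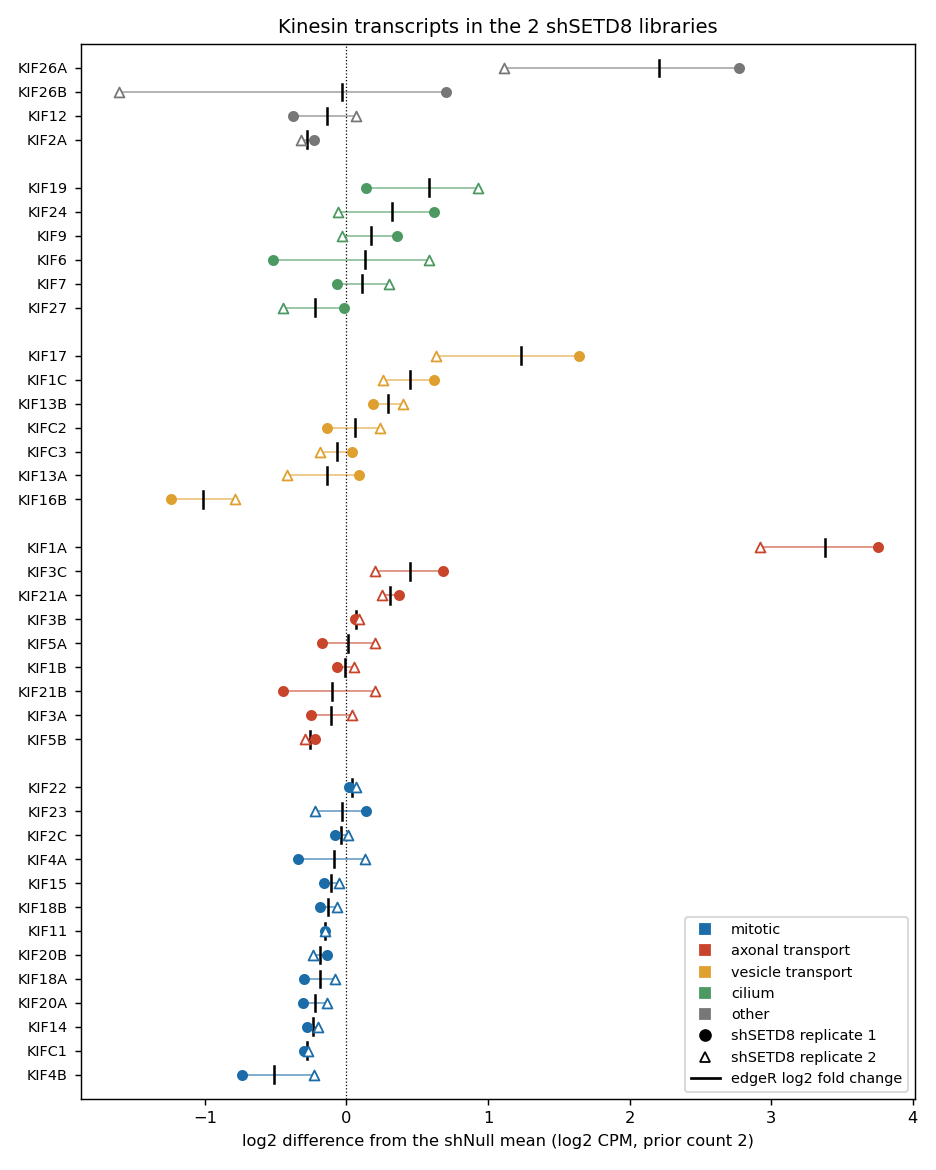
Log2 difference of each shSETD8 library from the shNull mean (x axis, log2 CPM with a prior count of 2; filled circles: replicate 1, open triangles: replicate 2; bars: edgeR log2 fold change) for the 39 motors, grouped and coloured by role. KIF1A and KIF26A lie to the right of 2 on the fitted scale, most mitotic kinesins lie close to and left of 0, and the replicates of KIF26B fall on opposite sides.

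Among the 4 kinesins of other roles, KIF26A was the second kinesin that DESeq2 called. It is an atypical family member without motor activity, known from mouse to hold back growth signalling in enteric neurons. It had 53 and 43 counts in the shNull clones against 413 and 120 in the shSETD8 clones, or 1.20 and 1.03 CPM against 7.87 and 2.46 CPM. Both clones were higher, replicate 1 by 7.05-fold and replicate 2 by 2.20-fold over the shNull mean. The log2 fold change was 2.21 ± 0.60 (DESeq2 adjusted p = 0.0214; edgeR adjusted p = 0.404). Without shSETD8 replicate 1 it was 1.13, without replicate 2 it was 2.82, and DESeq2 called it in 1 of the 4 fits that leave out a library, the one without shSETD8 replicate 2. The edgeR adjusted p over those fits ran from 0.000175 to 0.9998. Its relative KIF26B, at 22 and 18 counts in shNull, had 41 and 6 in shSETD8, opposite in the 2 clones. KIF2A, a depolymerase that prunes axon branches and works at spindle poles, was at 104 and 90.2 against 82.6 and 77.8 CPM, lower in both clones (-0.28 ± 0.11; edgeR adjusted p = 0.465). KIF12 overlapped (-0.14).

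Vesicle motors outside the axonal class differed in both directions. KIF17, which carries NMDA receptors in dendrites, was at 3.04 and 2.81 CPM in the shNull clones and 9.19 and 4.55 CPM in the shSETD8 clones (1.23 ± 0.38; DESeq2 adjusted p = 0.125). KIF16B, a motor of early endosomes, went the other way, from 5.39 and 4.74 CPM to 2.12 and 2.91 CPM, with the shSETD8 mean at 49.6% of shNull (-1.01 ± 0.28; DESeq2 adjusted p = 0.136). The groups did not overlap for either gene, and neither was called on all 4 libraries. KIF1C, which carries dense-core vesicles and integrins, was at 69.5 and 76.8 against 112 and 87.8 CPM (0.45 ± 0.15; edgeR adjusted p = 0.424). KIF13B, a carrier of membrane proteins, was at 13.9 and 15.9 against 17.0 and 19.5 CPM (0.29 ± 0.16; edgeR adjusted p = 0.530). Both were higher in both clones. KIF13A was higher in shSETD8 replicate 1 and lower in replicate 2 than its shNull mean, at 64.6 and 58.1 against 65.2 and 45.9 CPM (-0.14). KIFC2 and KIFC3, which belong to the minus-end directed motors, lay at 0.06 and -0.07.

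The cilium kinesins overlapped between the groups in 5 of 6. KIF19, which shortens cilia by depolymerising microtubules, was at 55.0 and 44.4 CPM in the shNull clones and at 54.3 and 93.9 CPM in the shSETD8 clones, so that only replicate 2 was higher (0.58 ± 0.28; edgeR adjusted p = 0.502). KIF6 was at 0.838 and 1.01 CPM in the shNull clones and 0.629 and 1.39 CPM in the shSETD8 clones, with 33 and 68 counts in the latter. KIF27, a relative of the Hedgehog pathway regulator KIF7, was at 5.96 and 6.04 against 5.93 and 4.38 CPM (-0.22 ± 0.24) and was the one whose groups did not overlap. KIF24, KIF9 and KIF7 had log2 fold changes of 0.32, 0.17 and 0.11. Of the non-motors, KIF1BP lay at 0.10 and KIF9-AS1 at -0.04. Whether counting used strand is not stated, so reads of KIF9 and KIF9-AS1 where they overlap cannot be told apart.

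Over all 41 members, 17 had a log2 fold change above 0 and 24 below. At an unadjusted edgeR p under 0.05, 5 were higher (KIF1A, KIF26A, KIF17, KIF1C, KIF21A) against a background of 5.65%, and 4 were lower (KIF16B, KIFC1, KIF5B, KIF14) against 5.16%. Groups did not overlap in 9 higher and 10 lower members, which are 22.0% and 24.4% of the 41, near the background of 22.9% and 22.4%. DESeq2 and edgeR's likelihood ratio test each called KIF1A and KIF26A. Without shSETD8 replicate 2, edgeR called 7 members higher (KIF1A, KIF17, KIF1C, KIF21A, KIF24, KIF26A, KIF3C) and 3 lower (KIF16B, KIF21B, KIF4A), where it called 17.2% of all genes. Without replicate 1 it called KIF1A and KIF19 higher and KIF13A lower, where it called 9.55% of all genes, so that KIF1A alone was called in both.

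Other genes of the motor machinery were given by lists, and edgeR and DESeq2 each called 0 members of any. Of 23 light chains, adaptors and regulators of kinesins, 12 lay above 0 and 11 below, with a median of 0.01. PPFIA4, whose protein belongs to the liprins that bind KIF1A, was lower at an unadjusted edgeR p under 0.05 (-0.30 ± 0.10). Of 12 tested genes for cargo of KIF1A vesicles, 4 lay above 0 and 8 below, with a median of -0.11. Over the 15 measured, the medians by clone were -0.43 (shSETD8 replicate 1) and 0.34 (replicate 2). These medians include SYT4, SCG2 and PTPRN, which were not tested and had 10 counts or fewer in every library. CHGB, SCG3 and SCG5 had at most 42 counts. VAMP2, a synaptic vesicle protein, was at 68.1 and 53.5 CPM in the shNull clones and at 44.7 and 55.6 CPM in the shSETD8 clones, with overlap. SYN1, which coats synaptic vesicles, had 13 and 17 counts against 24 and 49, higher in both clones (1.05 ± 0.53; edgeR adjusted p = 0.514). The prohormone convertase gene PCSK2 had 43 and 16 counts in the shNull clones against 6 and 5 in the shSETD8 clones. With these low genes counted, the cargo medians lay on opposite sides of 0 in the 2 clones, while KIF1A was higher in both.

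Dynein is the motor that walks the opposite way. Of 26 genes for subunits of dynein and dynactin and for their regulators and adaptors, 15 lay above 0 and 11 below, with a median of 0.02. DYNC1I1, a neuronal intermediate chain, was at 2.04 and 1.73 CPM in the shNull clones and 0.572 and 0.717 CPM in the shSETD8 clones, lower in both clones (-1.55 ± 0.33; edgeR adjusted p = 0.362). Its paralog DYNC1I2, at -0.25 ± 0.09, and the dynactin subunit gene DCTN3, at 0.38 ± 0.12, also had an unadjusted edgeR p under 0.05. Of 21 microtubule-associated proteins and neuronal tubulins, 8 lay above 0 and 13 below, with a median of -0.02. The neuronal microtubule protein gene DCX was at 4.44 and 2.24 against 1.16 and 1.58 CPM (-1.28 ± 0.43; edgeR adjusted p = 0.431). A list of 18 held partners of the mitotic kinesins and other cell cycle genes, MKI67, TOP2A, CCNB1 and CDK1 among them. In it 15 lay below 0, with a median of -0.10, where 48.8% of all genes lay below 0. Of the 18, 9 were lower without overlap and 1 was higher (AURKB, 0.08 ± 0.09), where 22.4% and 22.9% of all genes were. Cyclin B1 (CCNB1) was at 212 and 201 against 164 and 164 CPM (-0.33 ± 0.09; edgeR adjusted p = 0.393), and CDK1, its kinase, was at -0.27 ± 0.11.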

How the data were processed

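Poly(A)-selected, strand-specific RNA libraries of 4 D458 clones were sequenced as single reads of 50 bases, per the labels. The deposited table holds raw counts per gene. The submitters' processing notes name STAR 2.4.0.1, DESeq 1.32.0, Trimmomatic 0.36, FastQC 0.10.1 and the build hg19, and no counting program. Another 2 count columns matched no sample and were not used. Groups follow the treatment label, and replicate numbers pair nothing.

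The main test was edgeR 4.0.16 (R 4.3.3), quasi-likelihood with TMM and filterByExpr, on 14546 genes, with Benjamini-Hochberg adjustment over all of them at a threshold of 0.05. Standard errors divide the log2 fold change by the root of its F statistic. DESeq2 1.42.0, the likelihood ratio test, limma-voom (limma 3.58.1), DESeq2 size factors, no filter, other forms of the classes and leaving out each library were alternatives. Scripts were tested on simulated data at the same threshold. There DESeq2 called 206 genes, 50 of which had not been changed, and edgeR called 172, 18 of which had not. The simulation gave both groups the same spread for each gene. In these data the SD of the log2 difference was 0.51 between the shSETD8 libraries and 0.21 between the shNull libraries. The share of false calls by DESeq2 in these data may therefore differ from the simulated one and is not known. A call by DESeq2 is to be read with that in mind.

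The members, their roles, the gene lists and the rule for named genes were chosen with earlier results of these data known. By that rule, all mitotic and axonal transport members and, of the rest, the 4 greatest positive and negative changes, those called and those with a log2 gap of 1 or more between shSETD8 clones are given per library. Up to 4 genes with the lowest p are named per list; 1 gene is not reported here. The neighbours of KIF1A and KIF26A were looked at after their values were seen.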

Additional observations from a re-analysis of the deposited data

How the results depend on the processing

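KIF1A was higher under every alternative run. Its log2 fold change was 3.38 in DESeq2 and 3.37 in edgeR's likelihood ratio test, which both called it, and from 2.89 to 3.74 with a library left out. SETD8 was at -1.0 in DESeq2, which called it, and from -1.53 to -0.61 with a library left out. The number of kinesins called was 0 in edgeR and limma-voom, 2 in DESeq2, 2 in the likelihood ratio test and 0 to 10 with a library left out. Over all genes the numbers were 0, 283, 247 and 0 to 2550. The difference of the axonal transport and mitotic medians ran from 0.12 to 0.33 and the mitotic median from -0.20 to -0.14 with a library left out. Of 41 members, 23 kept one sign under every alternative, 9 of 13 mitotic and 5 of 9 axonal transport kinesins among them. No paired analysis was possible because the replicate numbers come from the order of the records and name no shared culture. No mitotic kinesin passed the adjusted threshold in a test on all 4 libraries. Members with few counts, such as KIF26B, KIF6 and KIF4B, are limited by depth as well.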

Other observations

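The genes beside KIF1A did not share its difference. Of the 16 measured genes nearest to it in RefSeq order, 8 on each side, 13 were tested. Their log2 fold changes lay between -0.25 and 0.23, with a median of 0.06, and edgeR gave 0 of them an unadjusted p under 0.05. The nearest tested gene on one side was CAPN10, at 39.2 and 46.0 CPM in the shNull clones and 46.6 and 42.5 CPM in the shSETD8 clones. On the other side it was SNED1, at 2.99 and 3.80 against 2.59 and 3.11 CPM.

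Around KIF26A, 14 of the 16 nearest measured genes were tested, with log2 fold changes from -0.64 to 1.49 and a median of 0.18, and edgeR gave 4 of them an unadjusted p under 0.05, where 5.65% of all genes were higher and 5.16% lower at that p. All 4 were higher in shSETD8, as KIF26A was: C14orf2 (0.29), RD3L (1.04), INF2 (1.18) and CEP170B (1.49), as log2 fold changes. These neighbours were chosen after the value of KIF26A was seen, and RD3L stayed under 1 CPM in every library.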
